A study of Mus musculus with 83 samples.

Results

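Egr1, Egr2, Egr3, Egr4, Nr4a1, Nr4a2 and Nr4a3 are transcription factor genes that neurons switch on within minutes to hours of activity. Their rows were read from a table of raw counts that holds 48795 genes, and all 7 were found. They were selected from earlier results of these same data, in which activity-induced genes had been compared between the ages, so their values by age are given as a description. The data are 83 RNA-seq libraries from male C57BL/6 mice, and each library is a pool of 125 neurons that were laser-captured in fresh frozen frontal cortex cut at 14 µm. The 8 groups are the 4 neuron types at 2 ages, young (2 months, from 9 mice) and old (22 months, from 12 mice). Staining for Slc17a7 marked pyramidal cells (PYC). Interneurons were marked by Pvalb (parvalbumin, PV), Sst (somatostatin, SST) or Vip (the vasoactive intestinal peptide, VIP). Each type had 12 old pools. PYC, SST and VIP had 9 young pools each and PV had 8. No treatment or genotype is named for any group. The labels do not tie a pool to a mouse, and pools of different types must share mice, so p-values between types treat pools as more independent than they may be.

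Both families are read as early markers of neuronal activity. Synaptic calcium entry activates the ERK and CaM kinase pathways, which act on SRF with its ternary complex partners and on CREB, and these raise transcription of the genes without new protein synthesis. Egr proteins are zinc finger factors that bind GC-rich sites and are restrained by the corepressors Nab1 and Nab2, while Nr4a proteins are orphan nuclear receptors that work without a known physiological ligand, and Nr4a1 and Nr4a2 can pair with retinoid X receptors. The genes do not form a single pattern in cortex. Egr1 is present at rest in many excitatory neurons, and Nr4a2 is also a lasting marker of some deep cortical neurons and of the claustrum.

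Promoter windows of RefSeq on GRCm38.p6 were found for 5 of the 7 genes, Egr2 (with several start sites), Egr4, Nr4a1, Nr4a2 and Nr4a3. The 250 bases before the start site are shown for the Nr4a genes, whose levels across neuron types are described below, and for Egr4. Sequences run from 5′ to 3′ along the gene's strand, and capitals mark TGACG or its reverse complement CGTCA, the letters shared by binding sites of CREB.
Nr4a1, chr15:101266596-101266845, plus strand: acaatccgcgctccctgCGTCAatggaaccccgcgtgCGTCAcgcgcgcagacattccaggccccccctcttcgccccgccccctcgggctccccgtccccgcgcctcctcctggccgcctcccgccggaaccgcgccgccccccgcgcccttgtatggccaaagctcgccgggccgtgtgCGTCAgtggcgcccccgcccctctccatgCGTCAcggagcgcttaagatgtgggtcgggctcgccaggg
Nr4a3, chr4:48045055-48045304, plus strand: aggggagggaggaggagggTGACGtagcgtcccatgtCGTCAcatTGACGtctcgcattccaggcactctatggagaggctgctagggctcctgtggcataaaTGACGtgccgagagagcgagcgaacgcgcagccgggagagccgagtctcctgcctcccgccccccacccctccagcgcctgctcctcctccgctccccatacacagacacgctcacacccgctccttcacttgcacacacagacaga
Nr4a2, chr2:57124004-57124253, minus strand: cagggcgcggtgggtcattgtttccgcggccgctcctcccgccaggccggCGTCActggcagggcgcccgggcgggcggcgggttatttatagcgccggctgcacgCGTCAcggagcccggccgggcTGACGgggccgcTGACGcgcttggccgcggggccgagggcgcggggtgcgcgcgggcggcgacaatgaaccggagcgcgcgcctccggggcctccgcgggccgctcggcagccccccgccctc
Egr4, chr6:85513590-85513839, minus strand: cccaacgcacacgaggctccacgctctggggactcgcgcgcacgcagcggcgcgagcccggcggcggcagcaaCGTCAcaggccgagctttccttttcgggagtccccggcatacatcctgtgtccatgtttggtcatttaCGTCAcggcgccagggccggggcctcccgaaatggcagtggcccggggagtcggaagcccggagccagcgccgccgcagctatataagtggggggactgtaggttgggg
In the Nr4a windows these letters occurred 4 times each, and in that of Egr4 they occurred 2 times. Some windows of Egr2, not shown and overlapping each other, also held them 2 times each. Any match, whatever the number, was present in 20.8% of the 32851 windows of 300 bases in the table. In Nr4a1 the matches nearest to the start site began 69 and 40 bases before it, and all 4 lay on the strand opposite to the gene. In Nr4a3 the nearest began 147 bases before the start, and in Nr4a2 it began 111 bases before. The complete palindrome TGACGTCA (1.79% of windows), the Egr site GCGTGGGCG (0.612%) and the site of Nr4a monomers, AAAGGTCA (1.51%), were searched on both strands and had no match in the windows of the 5 genes. A CArG box, the site of SRF, was in 1.63% of windows and in 4 of the 5 windows of Egr2, which overlap in part. The RefSeq start of Nr4a1 lies inside its longer M21 span. These are matches of letters and not measured binding.

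Positions are on GRCm38 with the gene models of GENCODE M21. Egr1 (ENSMUSG00000038418) lies on chromosome 18 from 34859823 to 34864984, Egr2 (ENSMUSG00000037868) on chromosome 10 from 67535475 to 67542188, Egr3 (ENSMUSG00000033730) on chromosome 14 from 70077203 to 70082614 and Egr4 (ENSMUSG00000071341) on chromosome 6 from 85511121 to 85513589. Nr4a1 (ENSMUSG00000023034) lies on chromosome 15 from 101254269 to 101274795, Nr4a2 (ENSMUSG00000026826) on chromosome 2 from 57106830 to 57124003 and Nr4a3 (ENSMUSG00000028341) on chromosome 4 from 48045153 to 48086447. No other M21 gene overlaps any of them. The annotation behind the deposited counts is not named in the sources used here.

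Library totals ran from 1456843 to 27166041 counts with a median of 6988510, and levels are given in CPM, a gene's counts scaled to the same total in every library. The mitochondrially encoded mt- genes made up 8.31% to 17.003% of the counts of 77 pools and 0.215% to 2.51% of those of 6 pools. The latter are young PYC replicate 2, young VIP replicates 1 and 3, young SST replicate 6, old PYC replicate 10 and old VIP replicate 11, and values are given with and without them where they move a result. The interneuron pools held the markers of their stains. PV markers summed to a median of 1193 CPM in PV pools against 27.4 to 51.0 elsewhere, SST markers to 3381 CPM in SST pools against 106 to 455, and VIP markers to 1889.7 CPM in VIP pools against 14.1 to 40.7. Old VIP replicates 9 and 11 also held SST markers, at sums of 1930 and 2071 CPM. The next VIP pool, old replicate 8, was at 667 CPM. The part of SST cell RNA in the VIP values below was not tested.

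The first comparison concerned the neuron types, with calls from the edgeR fit of all 8 groups. Egr1 and Egr3 were higher in pyramidal pools than in each of the other types. Nr4a1 was higher in PYC and in VIP than in PV and SST pools, with no call between PYC and VIP, and Nr4a3 was called higher only in PYC against PV. Egr2 was at 0 counts in most pools, and no difference of Egr2, Egr4 or Nr4a2 between types was called. Per kilobase of exon the median levels in PYC pools, over both ages, were 32.2 CPM for Egr1, 18.8 for Egr3, 15.6 for Nr4a1, 6.52 for Nr4a3, 4.61 for Egr4 and 1.91 for Nr4a2. Egr1 thus had the highest level per length of the 7 genes in these pools and Nr4a2 the lowest of the 6 whose median was above 0.

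Egr1, which encodes the zinc finger factor also called Zif268 or Krox-24, was detected in all 83 pools. In PYC pools it ran from 70.4 to 549 CPM with a median of 145. In VIP pools the range was 20.8 to 200.3 CPM with a median of 105, in SST pools 28.3 to 147 with a median of 67.2, and in PV pools 8.29 to 76.2 with a median of 30.5. Only 1 of the 20 PV pools lay above the lowest PYC pool, while 10 of 21 SST pools and 13 of 21 VIP pools did. The ranges of PYC and PV thus barely met, and those of PYC and VIP overlapped widely.

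The edgeR quasi-likelihood test over all 8 groups gave Egr1 a log2 fold change of 2.29 ± 0.23 (SE) in PYC against PV, 1.38 ± 0.21 against SST and 1.04 ± 0.21 against VIP. Its adjusted p-values, over all 19208 genes tested with Benjamini-Hochberg adjustment in edgeR, were 9.41e-16, 1.46e-07 and 0.000147. Egr1 was lower in PV than in SST (-0.91 ± 0.22, edgeR adjusted p = 0.00142) and than in VIP (-1.26 ± 0.22, edgeR adjusted p = 2.80e-06). SST and VIP pools were not called different (-0.35 ± 0.21, edgeR adjusted p = 0.424), so the order of Egr1 was PYC, then VIP and SST unresolved from each other, then PV.

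Egr3, an Egr factor that is itself partly driven by Egr1, had a median of 82.9 CPM in PYC pools with a range of 27.1 to 166. VIP pools had a median of 41.6 CPM (13.4 to 87.6), SST pools 21.3 (2.71 to 41.7) and PV pools 19.1 (0.817 to 55.7). No SST or PV pool reached the PYC median, and 1 VIP pool did. Egr3 was higher in PYC than in PV by 2.07 ± 0.31, than in SST by 2.01 ± 0.30 and than in VIP by 1.06 ± 0.29 on the log2 scale (edgeR adjusted p = 3.77e-08, 6.51e-08 and 0.00832). It was also lower in PV than in VIP (-1.01 ± 0.30, edgeR adjusted p = 0.0101) and lower in SST than in VIP (-0.95 ± 0.29, edgeR adjusted p = 0.0306). PV and SST were not called different (-0.06 ± 0.30). Unlike Egr1, Egr3 therefore stood at a near level in SST and PV pools.

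**Figure D1:**
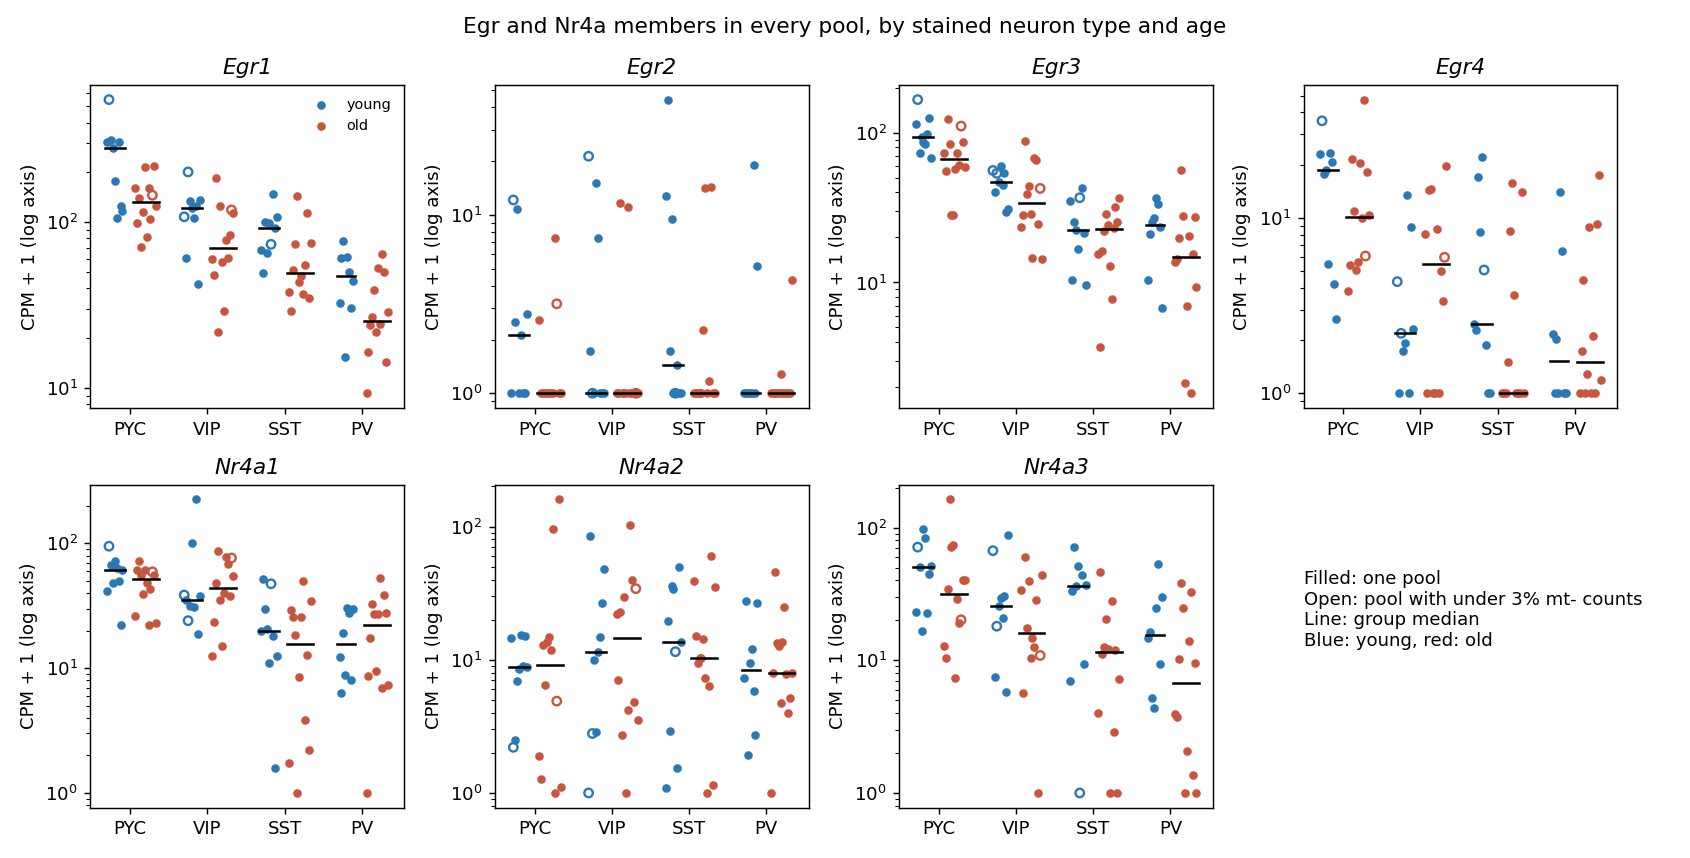
Level of each gene in every pool as CPM + 1 on a log axis, by neuron type on the horizontal axis, with young pools in blue, old pools in red, group medians as lines and pools with under 3% mt- counts as open circles. Egr1 falls from a median of 145 CPM in PYC to 30.5 in PV pools, the Nr4a2 medians run from 6.96 to 10.5 CPM, and most Egr2 points lie at 0 counts.

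Nr4a1, an orphan nuclear receptor also called Nur77, had a median of 54.6 CPM in PYC pools with a range of 21.1 to 94.0. In VIP pools the median was 36.6 CPM and the range reached from 11.4 to 224, the highest value of all pools. SST and PV pools had medians of 17.5 and 17.3 CPM, with 1 pool of each at 0. Nr4a1 was higher in PYC than in PV (1.44 ± 0.40, edgeR adjusted p = 0.00460) and in SST (1.47 ± 0.39, edgeR adjusted p = 0.00448). It was likewise lower in PV than in VIP (-1.38 ± 0.40, edgeR adjusted p = 0.00738) and lower in SST than in VIP (-1.41 ± 0.39, edgeR adjusted p = 0.0121). PYC against VIP gave 0.06 ± 0.38 and PV against SST 0.03 ± 0.39. By calls, Nr4a1 was thus higher in PYC and VIP than in SST and PV pools, with no call inside either pair. The VIP median was 67.1% of the PYC median, and 6 of 21 VIP pools lay above the PYC median. The missing call between PYC and VIP therefore does not show equal levels.

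Nr4a3, the relative also called Nor1, had a median of 39.0 CPM in PYC pools (6.36 to 162), 19.7 in VIP pools (0 to 86.3), 11.2 in SST pools (0 to 70.8) and 8.88 in PV pools (0 to 52.1). In the edgeR fit of all 8 groups Nr4a3 was called only between PYC and PV, with 1.65 ± 0.55 (edgeR adjusted p = 0.0258). That call was lost in young pools alone (1.38, edgeR adjusted p = 0.279) and in old pools alone (1.97, edgeR adjusted p = 0.0982). Against SST the value of Nr4a3 was 1.26 ± 0.53 (edgeR adjusted p = 0.128), and limma-voom with quality weights called it (limma-voom adjusted p = 0.00374). Egr4, the shortest of the Egr genes, had a median of 9.89 CPM in PYC pools, where every pool held at least 13 counts of it. The medians in VIP, SST and PV pools were 2.36, 0.894 and 0.510 CPM, with 6, 9 and 8 pools at 0. Its log2 fold change in PYC was 2.26 ± 0.95 against PV, 1.76 ± 0.90 against SST and 1.83 ± 0.90 against VIP, and none of these was called by edgeR (adjusted p = 0.0902, 0.255 and 0.232). DESeq2 and an edgeR fit of PYC and PV pools only called the first of them. Limma-voom with quality weights called all of them at 4.18, 3.69 and 2.98.

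Nr4a2, also called Nurr1, had no called difference. Its medians were 7.76 CPM in PYC, 6.96 in PV, 10.5 in SST and 10.4 in VIP pools. Of the 21 SST pools 14 lay above the PYC median, as did 12 of 21 VIP pools and 9 of 20 PV pools. Its 6 differences between types had log2 values from -0.91 ± 0.64 (PV against VIP) to 0.38 ± 0.64 (PYC against PV). The spread within a type was wide, with ranges of 0 to 159 CPM in PYC, 0 to 102 in VIP, 0 to 58.6 in SST and 0 to 44.3 in PV pools. Egr2, an Egr factor best known from hindbrain and Schwann cells, was at 0 counts in 56 of 83 pools and at 10 or more counts in 18. Its median was 0 CPM in each type, and a count of 0 allows levels of up to 3 counts of a library's total. No difference of Egr2 between types was called.

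Counted over the 7 genes, all of which were tested, 4 were called higher in PYC than in PV, where 9.38% of all genes tested were called in that direction. Against SST 3 were called higher in PYC, where 5.11% of genes were, and against VIP 2, where 4.26% were. Lower in PV than in SST was 1 gene, against 6.73% of all genes, and lower in PV than in VIP were 3, against 9.79%. Lower in SST than in VIP were 2, against 3.39%. The median log2 fold change of the 7 genes in PYC against PV was 1.65, beside 0.04 over all genes tested. In PYC against SST it was 1.38, beside -0.04. Without the 6 pools of low mt- share, Egr1 kept 2.21 ± 0.23 and Egr3 2.00 ± 0.32 in PYC against PV, with edgeR adjusted p of 8.64e-15 and 3.36e-07, and no called difference of the 7 genes was lost. Of the 15 calls between types, 8 were made in young pools alone and 6 in old pools alone, fits with fewer pools. Those made in both were Egr1 and Egr3 in PYC against PV and against SST, and Egr1 in PV against VIP. The call of Egr3 between SST and VIP was also lost in a fit of these types only.

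**Figure D2:**
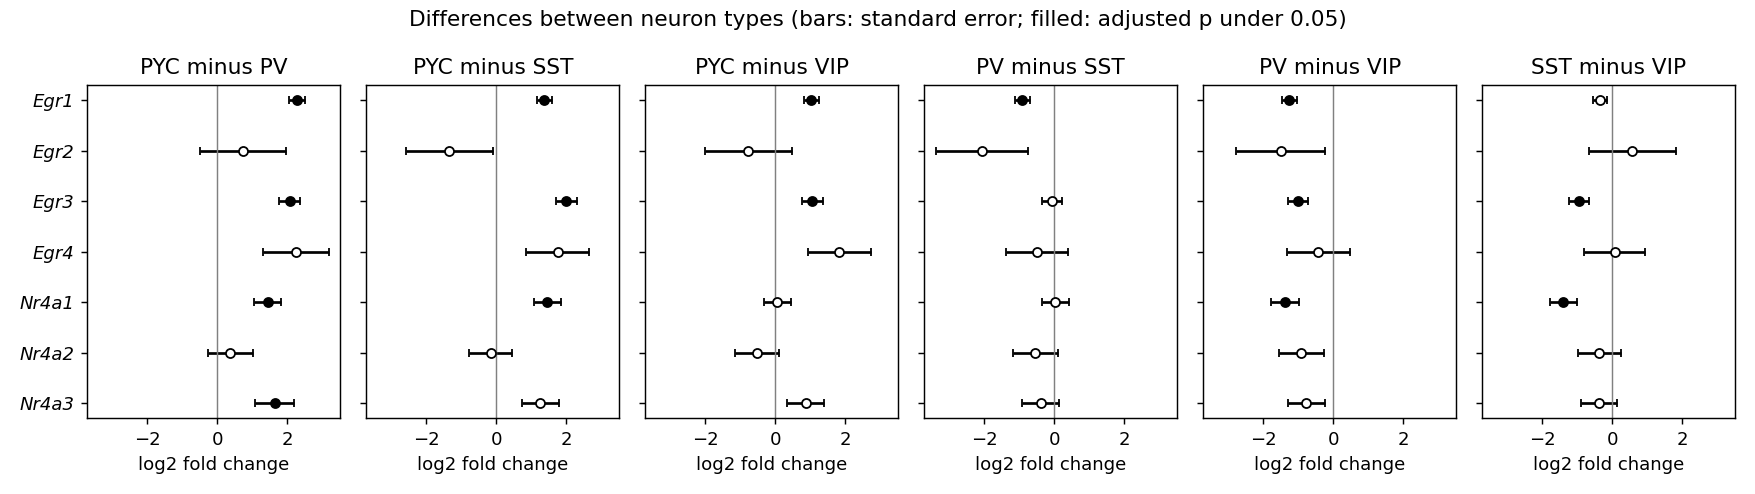
Log2 fold change of each gene for the 6 pairs of neuron types (horizontal axis, first type minus second), with bars of 1 standard error and filled points where the edgeR adjusted p was under 0.05. Egr1 and Egr3 are filled in all 3 PYC panels, Nr4a1 in the panels that set PYC or VIP against PV or SST, and Nr4a2 in none.

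Levels of excitatory neuron RNA in the pools followed the same order. The 10 pyramidal markers of the list summed to a median of 3653 CPM in PYC pools (2969.9 to 5971), 2982 in VIP (2190.5 to 4439), 1953 in SST (1494 to 2595) and 1599.9 in PV pools (918 to 2389). As a share of the PYC median this was 81.6% in VIP, 53.5% in SST and 43.8% in PV pools. None of the 10 markers was at a median of 0 in VIP or PV pools, and in SST pools Emx1 was. Egr1 stood at 72.6%, 46.5% and 21.1% of its PYC median in the same order, Egr3 at 50.1%, 25.7% and 23.0%, Nr4a1 at 67.1%, 32.1% and 31.7%, and Nr4a3 at 50.4%, 28.7% and 22.8%. Nr4a2 was at 134%, 135% and 89.7%. In such pools a higher level in the stained cells and RNA from neighbouring pyramidal cells cannot be told apart, and the part of the pyramidal RNA in these differences was not tested.

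**Figure D3:**
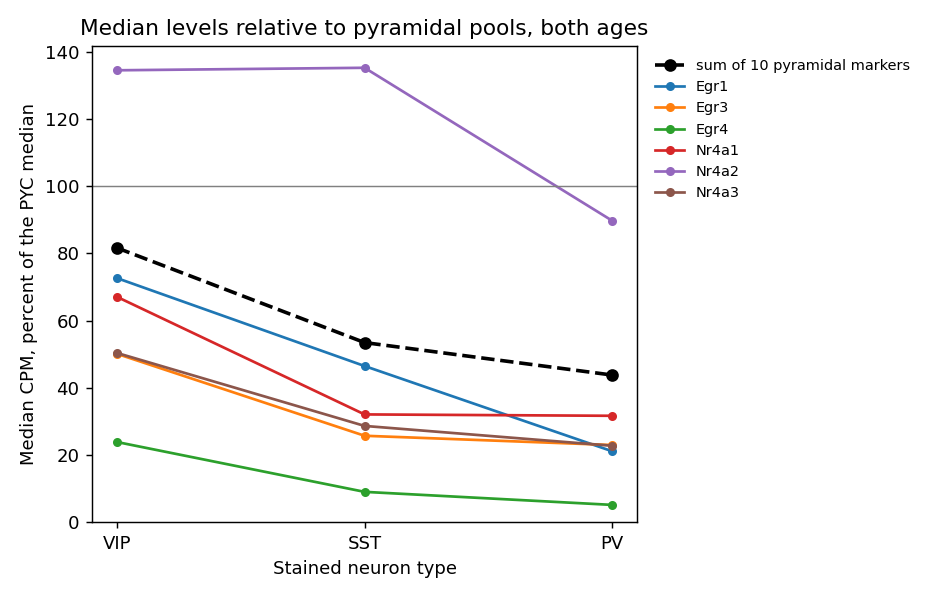
Median CPM of each gene in VIP, SST and PV pools (horizontal axis) as a percentage of its median in PYC pools, with the sum of 10 pyramidal markers as a dashed black line. The Egr genes, Nr4a1 and Nr4a3 lie below the marker line in each type, at 72.6% or less, and Nr4a2 lies above it at 89.7% to 135%. Egr2 is left out because its PYC median was 0.

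The second set of values concerned age. The median of Egr1 was lower in old than in young pools in each neuron type, at 0.472 of the young median in PYC, 0.530 in PV, 0.531 in SST and 0.566 in VIP, but no member of the 7 passed the test over all genes in any type. The edgeR fits for age, 1 for each type, covered 12508, 12564, 12805 and 12337 genes in PYC, PV, SST and VIP. The adjusted p-values over all genes called 0 of 6, 0 of 5, 0 of 6 and 0 of 6 members, beside 0.0% of all genes in each type. Egr2 was too sparse to be tested in any type and Egr4 in PV. At an unadjusted p under 0.05 there was 1 member, Egr1 in PYC, beside 2.91% of all genes in PYC, 2.32% in PV, 2.87% in SST and 2.98% in VIP. DESeq2 and limma-voom also called no member.

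In PYC, Egr1 ran from 105 to 549 CPM with a median of 279.5 in the 9 young pools, and from 70.4 to 218 with a median of 132 in the 12 old pools. All 12 old pools lay below the young median, and 5 of 9 young pools lay above the highest old pool, while 4 old pools lay below the lowest young one. The log2 fold change of old against young was -0.90 ± 0.24 (SE, edgeR unadjusted p = 0.000562). The young pool at 549 CPM is one of the 6 with a low mt- share. Without these pools the young median was 228 CPM, the old median 125 CPM and the log2 fold change -0.69 ± 0.23 (edgeR unadjusted p = 0.00502), and 4 of 8 young pools lay above the highest old pool. The groups thus overlapped with and without them. With the F number of the sample titles as a factor the value was -0.49. Without any filter on low counts Egr1 in PYC was called (-0.91, edgeR adjusted p = 0.0101), in a fit that called 6505 of 31951 genes.

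Egr1 in the interneuron pools had the same sign. In PV its medians were 46.2 CPM in young (14.5 to 76.2) and 24.5 in old pools (8.29 to 63.7), in SST 91.2 in young (48.4 to 147) and 48.5 in old (28.3 to 144), and in VIP 122 in young (41.4 to 200.3) and 68.8 in old pools (20.8 to 184). The number of old pools below the young median was 9 of 12 in PV, 10 of 12 in SST and 10 of 12 in VIP. The log2 fold changes were -0.67 ± 0.40, -0.53 ± 0.29 and -0.44 ± 0.31, none of which was called, and the highest old pool lay above the young median in each of these types. Without the pools of low mt- share the values were -0.57 ± 0.31 in SST and -0.37 ± 0.34 in VIP, and PV had no such pool.

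Egr3 followed with smaller values. In PYC it had medians of 93.1 CPM in young (66.6 to 166) and 66.2 in old pools (27.1 to 123), with 6 old pools below the lowest young pool and a log2 fold change of -0.53 ± 0.27. The values were -0.43 ± 0.63 in PV, -0.24 ± 0.54 in SST and -0.14 ± 0.43 in VIP. In SST the medians of Egr3 were 21.3 CPM in young and 21.7 in old pools, so its level there did not separate the ages. Egr4 in PYC had medians of 17.9 CPM in young and 9.18 in old pools, and a log2 fold change of -0.29 ± 0.71 that went to 0.00 without the pools of low mt- share. In VIP, Egr4 was the member of the Egr family with a positive value, 0.99 ± 1.305, from medians of 1.20 CPM in young and 4.48 in old pools.

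Among the Nr4a genes, Nr4a3 in SST had a median of 10.5 CPM in old pools (0 to 44.9) and 35.1 in young pools (0 to 70.8). In SST 11 of 12 old pools lay below the young median, with a log2 fold change of -1.41 ± 0.80 that was not called, nor was it at -1.59 ± 0.74 without the pools of low mt- share. In PYC, PV and VIP its values were -0.26 ± 0.44, -0.84 ± 0.88 and -0.45 ± 0.69. Nr4a1 had values of -0.28 ± 0.32 in PYC, 0.27 ± 0.68 in PV, -0.44 ± 0.74 in SST and -0.26 ± 0.44 in VIP, and each of these was within 1 SE of 0. In VIP the sign of Nr4a1 rested on young replicate 7 at 224 CPM, and without that pool the value was 0.30.

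Nr4a2 in PYC was the only value of the 7 genes above 1 in favour of old pools, at 1.63 ± 0.91. The medians did not differ in that way, at 7.76 CPM in young (1.20 to 14.3) and 8.14 CPM in old pools (0 to 159). The difference came from old PYC replicates 11 and 8, at 159 and 94.6 CPM, while the other 19 PYC pools of both ages lay at or under 14.3 CPM. Without these pools, a choice made after the values were seen, the log2 fold change was -0.52 ± 1.07 (SE), and limma-voom with quality weights on all pools gave -0.83. In PV, SST and VIP Nr4a2 was at 0.04 ± 0.90, -0.09 ± 0.83 and -0.04 ± 0.87.

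**Figure D4:**
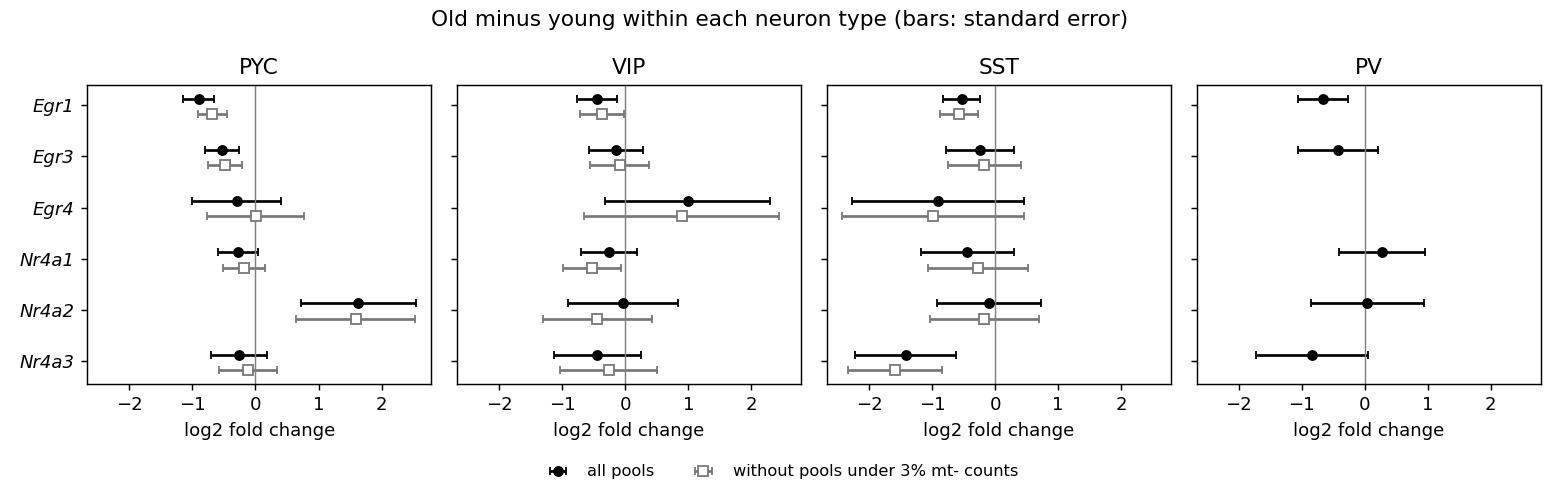
Log2 fold change of old against young pools within each neuron type (horizontal axis) for the 6 genes that could be tested, with bars of 1 standard error, for all pools (black) and without pools under 3% mt- counts (grey squares). Egr1 lies below 0 in the 4 types, from -0.90 in PYC to -0.44 in VIP, and Nr4a2 in PYC stands at 1.63 with a wide bar.

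Negative values were given by 5 of 6 tested members in PYC, 3 of 5 in PV, 6 of 6 in SST and 5 of 6 in VIP, beside 49.8%, 49.5%, 50.7% and 48.2% of all genes tested in these types. The members were chosen for age results of this kind, so these counts support nothing. The test of the interaction, whether the age difference itself differed between neuron types, called 0 of 7 members beside 3.13% of 19208 genes (601 genes), with 0 of 7 at an unadjusted p under 0.05, and it called no member under limma-voom. The count over all genes was 21 under limma-voom and 1 of the 9604 genes of higher abundance, so the share depends on the tool and the filter. The larger PYC value of Egr1 is therefore not shown to differ from that in the other types. The pyramidal marker sum had medians of 3798 CPM in young and 3569 in old PYC pools, 2104 and 1885 in SST, 2982 and 2950.3 in VIP, and 1462 and 1729.9 in PV pools, where the old median was above the young one. In bulk pools fewer cells with a transcript and less RNA per cell cannot be told apart.

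Correlations asked whether pools with much Egr1 also had much of its relatives. They were computed within each type on log2 CPM (prior count 2) after removing the mean of each age, for members with a median of at least 10 counts, which gave 19 relations. The strongest was Egr1 with Egr3 in SST, with Pearson's r = 0.57 (permutation p = 0.0110, adjusted p = 0.210 over 19 relations) and Spearman's rho = 0.56 (permutation p = 0.0123, adjusted p = 0.233) over 21 pools. It was 0.51 without the 2 pools farthest from the median of Egr1. In PYC, Egr1 and Egr3 gave r = 0.22 (permutation p = 0.308, adjusted p = 0.649) and rho = 0.31 (permutation p = 0.178, adjusted p = 0.778), and 0.06 without the farthest pools. Egr1 and Nr4a1 in PV gave r = 0.47 (permutation p = 0.0425, adjusted p = 0.404) and rho = 0.20 (permutation p = 0.410, adjusted p = 0.816), and r = 0.06 without the 2 farthest pools, so the relation rests on those pools. None of the 19 relations passed the adjustment.

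Over all pairs of members with enough counts, rho had a median of 0.15 in PYC (15 pairs), 0.15 in VIP (15 pairs), 0.23 in PV (10 pairs) and -0.02 in SST (15 pairs). The highest was Egr3 with Nr4a1 in PV, at 0.65, a pair that was at 0.47 in VIP, 0.17 in PYC and -0.23 in SST. The lowest was Egr3 with Nr4a3 in SST, at -0.27. Pairs without Egr1 were not tested. Among the genes that varied most like Egr1 over all 83 pools, of the 9604 genes of higher abundance, were Mast3 with rho = 0.74, Kalrn (0.73), Lingo1 (0.72) and Slc8a2 (0.72), a sodium-calcium exchanger gene. Egr3 was at rank 9 with 0.70, Nr4a3 reached 0.52, Nr4a1 0.43 and Nr4a2 0.04. For Nr4a1 they were Enc1 (0.63), Lingo1 (0.60), Lzts1 (0.60), Mast3 (0.60) and Elk1 (0.59), which encodes a partner of SRF. These values include the differences between types. With each of the 8 group means removed, the highest for Egr1 were Rph3a (0.42), Fan1 (0.38), Slc39a14 (0.38), Ehd1 (0.37) and Ypel2 (0.37), while Egr3 was at 0.22 and Nr4a1 at 0.09. For Nr4a1 they were Kcnj12 (0.40), Dnajb12 (0.40), Elk1 (0.39), Arid1b (0.36) and Unc13b (0.36), and Nr4a3 was at 0.26. Such likeness describes these pools, which share depth and mixed RNA as well as cell type.

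The signalling genes upstream of the families were read from lists. Of the list of SRF with its partners and the ERK arm, 16 of 18 genes were tested between types, and 5 were called higher and 1 lower in PYC than in PV, beside 1801 higher and 1420 lower of all 19208 genes. Among them were Mrtfb, an actin-regulated SRF coactivator (1.41 ± 0.12), and the ERK kinase gene Map2k1 (1.27 ± 0.21), while the ribosomal S6 kinase gene Rps6ka2 was lower (-0.99 ± 0.19). Against SST 4 were higher and 1 lower, beside 981 and 1100 of all genes, and against VIP 2 were higher and 1 lower, beside 819 and 998. The median of the list in PYC against PV was 0.50.

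Of 12 genes of the CREB arm, all tested, 5 were called higher and 0 lower in PYC than in PV, where 9.38% of all genes were higher. They included Camk4 (1.73 ± 0.16), a nuclear kinase of CREB, its activators Camkk2 (1.43 ± 0.17) and Camkk1 (1.22 ± 0.23), and the CREB coactivator gene Crtc1 (0.84 ± 0.17). Against SST 3 were higher and 1 lower, beside 981 and 1100 of all 19208 genes. Against VIP 2 were higher and 1 lower, beside 819 and 998. In PV against VIP 6 of the 12 were lower, where 9.79% of all genes were, among them Crtc1 (-0.99 ± 0.17) and Camk4 (-0.68 ± 0.15). Of 3 tested MEF2 factors, Mef2d was higher (0.82 ± 0.13) and Mef2a lower (-0.91 ± 0.21) in PYC than in PV. Beside them stood 1801 higher and 1420 lower of all 19208 genes. Against SST, Mef2c (0.90 ± 0.12) and Mef2d (0.51 ± 0.13) were called higher and 0 lower, beside 981 and 1100. Against VIP, Mef2c (0.55 ± 0.12) and Mef2d (0.47 ± 0.13) were called higher and 0 lower, beside 819 and 998.

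Of 5 partners of the Egr and Nr4a proteins, Nab2, a corepressor of Egr factors that is itself induced by them, was higher in PYC than in PV (1.49 ± 0.55, edgeR adjusted p = 0.0478), and the retinoid X receptor gene Rxra was lower in PYC than in VIP (-1.33 ± 0.36). The other activity-induced genes, outside the 7, had 42 of 44 tested, with 9 higher and 2 lower in PYC than in PV, beside the same 1801 and 1420 of all 19208 genes. Plk2 (1.82 ± 0.20), Homer1 (1.03 ± 0.16) and the synaptic pentraxin gene Nptx2 (2.13 ± 0.44) were higher, and the secretogranin gene Scg2 was lower (-1.299 ± 0.19). The median of this list in PYC against PV was 0.70, below the 1.65 of the 7 genes. Against SST 7 were higher and 2 lower, with a median of 0.75, beside 981 and 1100 of all genes. Against VIP 4 were higher and 1 lower, with a median of 0.15, beside 819 and 998. The difference between the lists was not tested, and the lists were drawn up with earlier results known.

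Between the ages no gene of these lists was called in any type. Of the other activity-induced genes 23 of 33 tested were negative in PYC and 27 of 34 in SST, with medians of -0.32 and -0.58. In PV 15 of 31 and in VIP 17 of 33 were negative. Of all genes tested, 49.8% were negative in PYC, 49.5% in PV, 50.7% in SST and 48.2% in VIP. The lists were drawn up with earlier results known, so the negative counts of this and the other lists are a description only. Within the list of other activity-induced genes, the smallest unadjusted p in PYC were those of Arc, an effector of synaptic scaling (-0.76 ± 0.27), and Ier5 (-0.81 ± 0.37). In SST they were those of Dusp4, a phosphatase of ERK (-3.10 ± 1.32), and Plk2 (-0.58 ± 0.25). In VIP it was that of Nfil3, a leucine zipper repressor, with a positive value (3.24 ± 1.33), and in PV that of Rgs2, a regulator of G protein signalling, also positive (1.24 ± 0.65). The ERK and SRF list had 7 of 15 negative in PYC, 5 of 15 in PV, 10 of 15 in SST and 5 of 15 in VIP, with medians of 0.04, 0.25, -0.05 and 0.24. For the CREB arm 8 of 12 were negative in PYC, 1 of 12 in PV, 9 of 12 in SST and 5 of 12 in VIP, with medians of -0.19, 0.30, -0.20 and 0.14. The CREB gene itself, Creb1, had 1.15 ± 0.42 in VIP, with an edgeR unadjusted p of 0.00961 beside 0.0187 for Nfil3. Elk3, of the ERK and SRF list, had 2.57 ± 1.19 in PV, with an edgeR unadjusted p of 0.0364 beside 0.0628 for Rgs2.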

How the data were processed

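Each of the 83 pools of captured neurons was sequenced after a low-input, strand-specific library preparation from total RNA, per the labels' protocols. The authors deposited raw counts per Ensembl gene, with no normalization. The submitters' processing notes name HISAT2 and GRCm38. Which tool, annotation and strand option produced the counts is not given in those sources.

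Of 48795 genes 48349 matched a symbol. Replicate numbers were given in sample order and only name pools. Levels in CPM are counts divided by the library total and put on a common scale. Age was tested within each type, and types and the interaction in a fit of all 8 groups, with edgeR 4.0.16 in R 4.3.3 (quasi-likelihood F-test, robust, TMM factors, filterByExpr at a minimum count of 10). Tests were 2-sided, p-values were adjusted over all genes by Benjamini-Hochberg, and calls were made at an adjusted p under 0.05. Standard errors come from the F statistic. Correlations used 100000 permutations within age in numpy 2.4.6. The fits and the permutation test were tested on simulated data.

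The 7 genes and all lists were chosen with earlier results of these data known. Named were the 7 genes, up to 4 genes of each list with the smallest unadjusted p in a comparison, and the 5 genes most like Egr1 and Nr4a1 (Gm and Rik genes left out). Some genes that this rule names are not reported here. Alternatives were RLE factors, other filters, DESeq2 1.42.0, limma-voom 3.58.1 with quality weights and leaving out the 6 pools of low mt- share. For age only, covariates were added (library total, the unexplained F number in the sample titles) and each pool was left out in turn. For types only, single ages and pairs of types were fitted. The fits between types were not repeated without single pools. Protein sequences were not used here. Without molecular identifiers, a limit of 3 counts covers counting error only. No pools held identical values, and where nothing says that pools of a group are separate mice, p-values measure the spread between these pools.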

Additional observations from a re-analysis of the deposited data

Results flagged for a closer look

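In groups of 8 or 9 pools, a member's highest or lowest pool was compared with its neighbour, and 5 of 28 such tests found a pool that stood apart by Dixon's criterion. Chance gives about 1 in 20 for values with a normal spread, which these CPM values, many of them 0 for Egr2 (6 of 8 young PV pools and 4 of 9 young SST pools), do not have, so no excess is read from the number. The old groups of 12 pools were not tested in this way. Egr1 in young PYC replicate 2 was at 549 CPM (1828 counts), and the next of the 9 pools was at 312 CPM. This pool is one of those with a low mt- share, and without it and the other such PYC pool the age difference of Egr1 was -0.69 in place of -0.90. Egr2 was at 18.03 CPM (200 counts) in young PV replicate 6, with the next of 8 pools at 4.17, and at 43.2 CPM (363 counts) in young SST replicate 2, with the next of 9 at 11.7. Egr4 was at 13.1 CPM (121 counts) in young PV replicate 5, with the next at 5.50. Nr4a1 was at 224 CPM (327 counts) in young VIP replicate 7, with the next at 100.6, while Egr1 in that pool was at 124 CPM and Egr3 at 52.9. The last 4 pools had ordinary mt- shares.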

How the results depend on the processing

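No paired analysis was possible because the replicate numbers follow the order of the samples and the labels tie no pool to a mouse. Of the 7 genes, 0 were called for age in the 4 types under the settings run, except without a filter on low counts, where the members called were 1 (Egr1 in PYC, adjusted p = 0.0101). Those fits called 6505, 6355, 5734 and 7117 genes in PYC, PV, SST and VIP, and the cause was not tested. Leaving out 1 pool at a time kept the sign of Egr1 in PYC, from -1.01 to -0.69. Calls between types numbered 15, 8 in young pools only and 6 in old pools only, with fewer samples. By pair, members called in old pools only were 2 in PYC-PV, 0 in PYC-VIP, 1 in PV-VIP and 0 in SST-VIP, and in young pools only 1 in PYC-VIP, 0 in PV-SST and 0 in SST-VIP. In PYC-SST limma-voom called 5, and in SST-VIP the fit of those types called 1.

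For the other changes of sign the cause was not tested. For age, Egr4 in PYC was 0.065 with the F number and 0.0034 without pools of low mt- share, Nr4a2 in PYC -0.83 under limma-voom and -0.52 without the 2 pools of highest Nr4a2, and Nr4a3 in PYC 0.15 with the library total. Under limma-voom Nr4a1 in PV was -0.35, Nr4a2 in PV -0.12 and Nr4a2 in SST 0.20. With the F number Egr3 in SST was 0.032 and Nr4a1 in SST 0.059, and with the library total Nr4a1 in VIP was 0.25. Leaving out 1 pool moved Nr4a2 from -0.40 to 0.45 in PV, from -0.49 to 0.24 in SST and from -0.66 to 0.73 in VIP, and Nr4a1 in VIP from -0.38 to 0.30. Between types, young pools only gave -0.036 for Egr2 and -0.39 for Nr4a2 in PYC-PV, 0.022 for Egr3 and -0.35 for Nr4a1 in PV-SST and 0.079 for Nr4a3 in SST-VIP. Old pools only gave Nr4a2 0.71 in PYC-SST and 0.29 in PYC-VIP, and Egr4 0.12 in PV-SST and -0.89 in SST-VIP. Limma-voom gave -0.13 for Nr4a2 in PYC-PV, 0.13 for Nr4a3 in PV-SST and -0.71 for Egr4 in SST-VIP. Nr4a1 in PYC-VIP was -0.078 without pools of low mt- share. Without the 2 farthest pools r with Egr1 was -0.037 for Nr4a2 and -0.020 for Nr4a3 in PV, and for Egr4 it was -0.092 in SST and 0.14 in VIP. None of these values was called.

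PV had no pool of low mt- share to leave out, and Egr2 was too sparse for the fit of old pools only. The depth of 1456843 counts in the shallowest pool limits what can be said of Egr2 and Egr4, whose counts were at 0 in 56 and 23 of 83 pools.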

Other observations

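Nr4a2 is known as a marker of layer 6b and claustrum neurons, so 6 genes known from those cells were read in the old PYC pools of high Nr4a2, as values only and chosen after the Nr4a2 levels were seen. Ccn2, a secreted growth factor of layer 6b, was at 19.0 CPM in old PYC replicate 11 and 22.6 in replicate 8, against a median of 0.0814 in the other 19 PYC pools, 1 of which was higher than both (49.1). Oprk1, the kappa opioid receptor gene, was at 19.7 and 45.3 CPM against a median of 0.951 (0 to 39.8). Lxn was at 15.6 and 49.0 CPM against 4.68 (0 to 25.7), and Gnb4 at 34.7 and 39.7 CPM against 9.12 (0 to 38.0). Cplx3 was at 4.74 and 28.5 CPM against 0.820 (0 to 38.4). Nxph4 was at 0.790 and 0 CPM against a median of 0 (0 to 11.6), with 4 other PYC pools above both. For Cplx3, 2 of the other 19 PYC pools lay above both and 4 above the lower of the pair. Above the lower value lay 6 other pools for Oprk1, and 2 each for Lxn and Gnb4. The part of such cells in the Nr4a2 values was not tested. Egr1 in the same pools was at 218 and 160.4 CPM and Nr4a1 at 54.6 and 21.2 CPM.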
